A study of Mus musculus with 69 samples.

Results

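Macrophages take up arginine and pass it to either of 2 competing enzymes, and 10 genes of that route are described here in bone marrow–derived macrophages (BMDMs) of genetically distinct mice treated with interleukin-4 (IL-4). They form a list of gene symbols drawn up with earlier results of these data known. The genes are Arg1, Arg2, Slc7a1, Slc7a2, Nos2, Ass1, Asl, Odc1, Srm and Sat1, which make up 10 of the 24537 genes listed in each expression table. All 10 passed the filter on low values in the 3 tables of mouse strains, the time course and the Egr2 deletion.

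Arginine enters macrophages through the cationic amino acid transporters encoded by Slc7a1 and Slc7a2. Arginase 1 (Arg1, cytosolic) and arginase 2 (Arg2, mitochondrial) cleave it to ornithine and urea, whereas inducible nitric oxide synthase (Nos2) turns it into nitric oxide and citrulline, and argininosuccinate synthase (Ass1) and argininosuccinate lyase (Asl) rebuild arginine from that citrulline. Ornithine decarboxylase (Odc1) and spermidine synthase (Srm) lead from ornithine to the polyamines, which spermidine/spermine acetyltransferase (Sat1) marks for export or breakdown. High Arg1 is a textbook mark of mouse macrophages treated with IL-4, and Nos2 is its counterpart in macrophages treated with interferon and bacterial products.

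RNA-seq of polyadenylated RNA was done on BMDMs of female mice of 8 to 12 weeks, differentiated in L929-conditioned medium and macrophage colony-stimulating factor and given no IL-4 or IL-4 at 20 ng/ml. The strain experiment compared the inbred strains SPRET/EiJ (SPRET), C57BL/6J (C57), PWK/PhJ (PWK), BALB/cJ (BALB) and NOD/ShiLtJ (NOD) without IL-4 and after 24 h, with 3 libraries a group and 2 for PWK without IL-4. The time course had 2 libraries a group of C57 and SPRET at 0, 1, 6 and 24 h. The Egr2 experiment had 2 libraries a group at the same times, from mice labelled Egr2 fl/fl (Egr2WT) and LyzM-Cre Egr2 fl/fl (Egr2MKO), in which Cre under the LyzM promoter deletes Egr2 in myeloid cells. Both genotypes carried the floxed alleles, and the control label names no Cre, so that Cre itself and loss of Egr2 cannot be told apart. Allele-resolved values came from BMDMs of 2 F1 hybrids, C57 × NOD and C57 × SPRET, with 2 libraries each without IL-4 and after 24 h. Replicates are described as biological, but nothing says whether each came from a separate mouse, so that p-values measure the spread between these libraries.

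Library depth was 4.69 to 32.9 M tags (M, 1e6 tags), and replicate libraries of the 3 tables correlated at r = 0.971 to 0.996. Transcripts of 6 macrophage markers (Adgre1, Csf1r, Cd68, Itgam, Lyz2 and Mertk) summed to 9308 to 53701 TPM (transcripts per 1e6) and were lowest in PWK, at 9308 to 9713. Markers of T, B, erythroid and fibroblast cells summed to at most 2.36 TPM. Those of dendritic cells summed to at most 6.69 TPM and those of mast cells and basophils to at most 21.7 TPM. The sum of 6 neutrophil markers (S100a8, S100a9, Ly6g, Camp, Elane and Mpo) was 543 to 596 TPM in PWK and 249 to 404 TPM in SPRET of the strain experiment, and 63.2 to 91.7 TPM in SPRET of the time course. With 24 h of IL-4 it went from 106 to 131 TPM to 16.6 to 24.3 TPM in C57, from 53 to 60 to 18 to 19.8 TPM in BALB and from 40.8 to 52.4 to 15 to 18.9 TPM in NOD. It went down too in C57 of the time course (66.2 to 94.2 against 6.43 to 7.97 TPM), in Egr2WT (61.4 to 64.5 against 19.1 to 21 TPM) and in Egr2MKO (39.6 to 44.7 against 10.7 to 16.1 TPM). SPRET of the strain experiment fell less, from 344 to 404 TPM to 249 to 274 TPM. Libraries with and without 24 h of IL-4 overlapped for this sum in PWK and in SPRET of the time course. The macrophage sum also went down with IL-4, in C57 from 23165 to 23879 TPM to 16527 to 17768 TPM and in BALB from 29081 to 30180 TPM to 21513 to 23070 TPM, and in both strains of the time course and both Egr2 genotypes. The part of either sum in the results was not tested. In bulk RNA, fewer expressing cells and less RNA per cell cannot be told apart.

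TPM is a per-length measure, so that levels of different genes can be set side by side. Differences are given as log2 differences of TPM plus 1, with the standard error (SE) of limma, a linear model fitted across all genes, and p-values adjusted over all genes tested. A gene was called when the adjusted p was under 0.05 and the difference over 2-fold. A gene is said to have passed when only the p was met. An adjusted p under 0.05 was common over all genes, called or not. It was met by 24.7% to 44.4% of genes for the strain responses and 43.2% to 82% between strains without IL-4. For the time-course responses the share was 3.95% to 39.4%, and between Egr2 genotypes 11.4% to 37.4%.

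After 24 h of IL-4, 4 of the 10 genes were called in C57 (Arg1, Arg2, Slc7a1 and Slc7a2, all higher), where 3.8% of the 11907 genes tested were called in either direction. In BALB and in PWK, 2 of 10 were called (Arg1 and Slc7a2, higher), beside 2.08% of all genes in each of these strains. NOD had Arg1 alone, beside 1.19% of all genes. SPRET had Arg1 and Slc7a2 higher and Nos2 lower, beside 3.94% of all genes. The median response of the 10 genes was 0.54 for C57, 0.30 for BALB, 0.17 for NOD, 0.28 for PWK and 0.67 for SPRET, against −0.04, −0.11, 0.12, 0.08 and 0.11 over all genes tested.

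**Figure D1:**
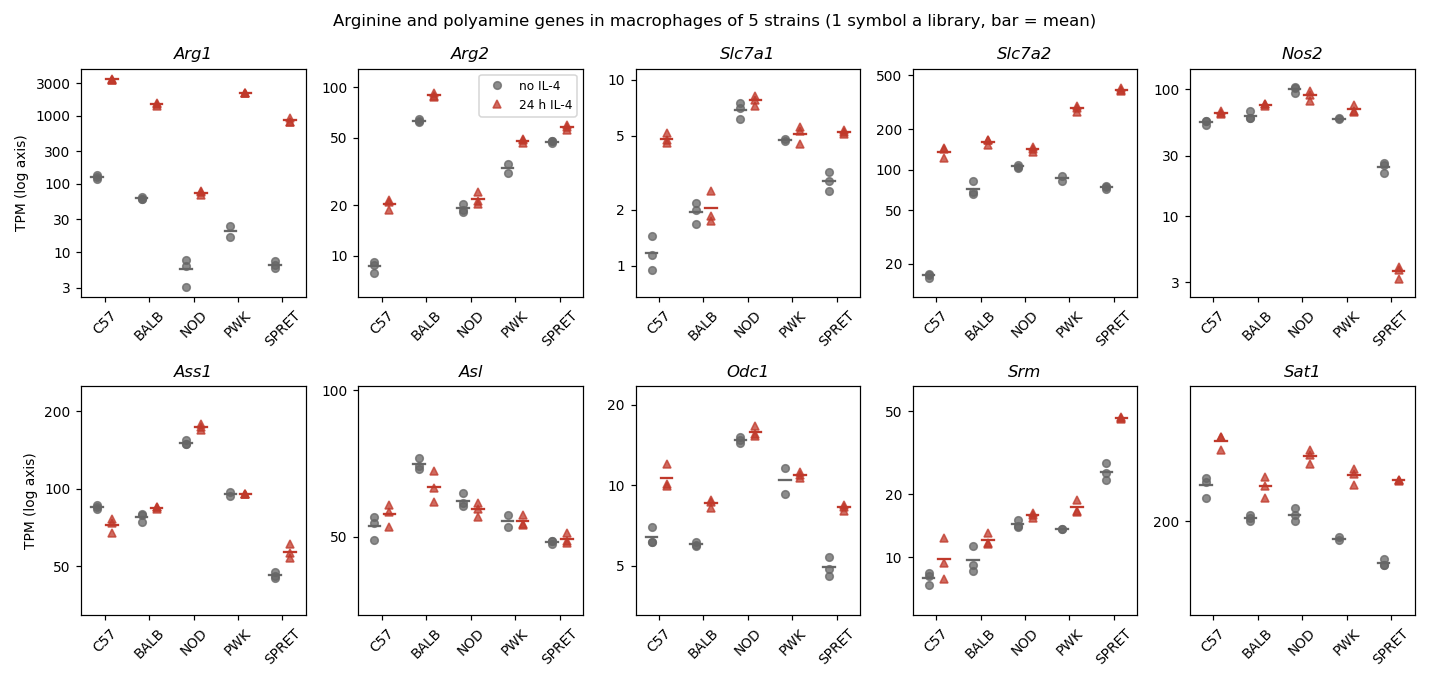
TPM (log axis) of the 10 genes in each library of the 5 strains without IL-4 (grey circles) and after 24 h (red triangles), with bars at the means. Arg1 lay higher after IL-4 in every strain but reached only 68.2 to 78.4 TPM in NOD, and Nos2 was called lower with IL-4 in SPRET alone.

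Without IL-4, 3 of the 10 genes differed from C57 by the call rule for BALB, 5 for NOD, 4 for PWK and 5 for SPRET. The shares of all genes were 4.81%, 16.9%, 13.3% and 18.1%. The median difference of all genes was −0.30 in NOD and −0.16 in PWK, and values of these strains are read against that shift. Differences in the response itself (an interaction term) were called for 2 genes of BALB, 3 of NOD, 3 of PWK and 2 of SPRET, beside 1.49%, 2.47%, 2.26% and 3.45% of all genes, whose median difference in response was 0.17 in NOD, 0.13 in PWK and 0.16 in SPRET. Scaling each library by its median ratio left the calls as they were in BALB and PWK. It raised those of NOD to 8 without IL-4 (7 higher, 1 lower) and to 4 for the response, and it turned the SPRET response calls from 1 higher and 1 lower into 1 higher and 2 lower.

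Arg1 lies on the minus strand of mm10 chromosome 10, from 24915207 to 24927470. Without IL-4 it stood at 124, 117 and 137 TPM in the C57 libraries and at 59.7, 60.6 and 63.1 TPM in BALB. It was at 16.7 and 23.7 TPM in PWK, at 6.38, 7.33 and 5.86 TPM in SPRET, and at 6.21, 7.54 and 3.02 TPM in NOD. C57 was thus highest, and of neighbours in this order only SPRET and NOD did not differ by the test (adjusted p = 0.14). After IL-4 the order became C57, PWK, BALB, SPRET and NOD, at means of 3411, 2151, 1474, 853 and 74.6 TPM, and every neighbouring pair differed (adjusted p from 2.8e-16 to 0.0048).

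The rise of Arg1 was largest in SPRET (log2 difference 6.83, SE 0.16) and PWK (6.68, SE 0.18) and smallest in NOD (3.59, SE 0.16). C57 and BALB rose by 4.75 and 4.57 on the log2 scale, both with SE 0.16, and their difference of −0.18 (SE 0.23, adjusted p = 0.67) did not pass. As ratios of mean TPM, Arg1 was 27-fold higher after IL-4 for C57, 24.1-fold for BALB, 13.3-fold for NOD, 106-fold for PWK and 131-fold for SPRET. Against C57 the response was larger by 1.94 in PWK (SE 0.24, adjusted p = 1.6e-06) and by 2.08 in SPRET (SE 0.23, adjusted p = 1e-07). It was smaller in NOD (−1.16, SE 0.23, adjusted p = 0.00041), a value that went to −0.94 without the second NOD library lacking IL-4 and to −0.95 with a pseudocount of 0.1 TPM, both short of 2-fold. The lower basal Arg1 of BALB (−1.03, SE 0.16) likewise went to −0.97 without the third C57 library lacking IL-4.

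Arg2 lies on the plus strand of chromosome 12, from 79130788 to 79156301, and C57, the strain highest for Arg1, was lowest for it. Libraries without IL-4 held 64.7, 62.1 and 62.7 TPM in BALB, 47.7, 48.1 and 46.4 TPM in SPRET and 34.9 and 31.1 TPM in PWK. NOD libraries held 20.2, 18.8 and 18.3 TPM and C57 libraries 9.25, 7.94 and 8.87 TPM, the lowest of all strains. Every neighbouring pair in this order differed (adjusted p from 8e-14 to 2e-06). Relative to C57, the differences were 2.73 in BALB, 2.32 in SPRET, 1.81 in PWK and 1.06 in NOD, and the last went to 0.999, just short of 2-fold, without the second C57 library lacking IL-4.

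IL-4 raised Arg2 in all 5 strains by the adjusted p, but over 2-fold only in C57, from a mean of 8.69 to 20.3 TPM (log2 difference 1.14, SE 0.06, adjusted p = 6.9e-14). The response was smaller than in C57 by 0.60 to 0.96 on the log2 scale in the other strains, all past the test and none over 2-fold. For NOD that difference passed 2-fold with median-ratio scaling (−1.18), quantile scaling (−1.13) or a pseudocount of 0.1 TPM (−1.03), and without the third IL-4 library of C57 (−1.01) or of NOD (−1.02). SPRET passed it with median-ratio (−1.05) or quantile scaling (−1.04). After IL-4 the C57 and NOD levels of 20.3 and 21.8 TPM did not differ by the test (adjusted p = 0.16). The ratio of Arg1 to Arg2 per library was 13.4 to 15.5 in C57 without IL-4 and 157 to 180 with it, against 0.126 to 0.152 and 13.6 to 16.3 in SPRET. NOD ranged from 0.165 to 0.401 without IL-4 and from 3.22 to 3.83 with it.

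Of the transporters, Slc7a2 (plus strand of chromosome 8, 40862367 to 40922070) was the more abundant per length in every strain library, at 11.7 to 90.2 times the TPM of Slc7a1, whereas in the Egr2 experiment without IL-4 it was 0.463 to 1.11 times. Without IL-4 it was at 16.6, 16.8 and 15.7 TPM in C57. The other strains held 66.2 to 109 TPM, with no library as low as those of C57. Relative to C57 the differences were 2.06 in BALB, 2.10 in SPRET, 2.32 in PWK and 2.62 in NOD (adjusted p from 1.6e-20 to 4.9e-18).

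After 24 h of IL-4, Slc7a2 stood at 145, 141 and 121 TPM in C57 and at 142, 134 and 148 TPM in NOD, which overlapped (adjusted p = 0.44). BALB libraries reached 151 to 167 TPM, PWK libraries 267 to 298 TPM and SPRET libraries 386 to 402 TPM. Its response was therefore greatest in C57 (2.97, SE 0.07), followed by SPRET (2.40), PWK (1.72), BALB (1.16) and NOD (0.42, passed but under 2-fold). The differences in response from C57 were −0.57 in SPRET, −1.25 in PWK, −1.81 in BALB and −2.55 in NOD, and the last 3 were called (adjusted p = 2.7e-09, 2e-12 and 3e-15).

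Slc7a1 (minus strand of chromosome 5, 148327410 to 148399904) was a low gene here, at 0.947 to 1.44 TPM in C57 without IL-4 and 4.59 to 5.14 TPM with it. This rise (1.43, SE 0.10, adjusted p = 1.8e-11) was the only call among the 5 strains, and SPRET passed at 0.70 (SE 0.10). In BALB, NOD and PWK the libraries with and without IL-4 overlapped, and the responses were 0.04, 0.15 and 0.09 (adjusted p = 0.78, 0.25 and 0.64). NOD was highest in both conditions, at 6.12 to 7.45 TPM without IL-4 and 7.23 to 8.18 TPM with it. At such levels the scale matters: with a pseudocount of 5 TPM the C57 rise was 0.67 and the calls of NOD (0.94) and PWK (0.66) without IL-4 and of the response differences in BALB (−0.65), NOD (−0.57) and PWK (−0.62) fell under 2-fold. Arg2 in C57 (0.89) and NOD (0.82), Odc1 in NOD (0.79) and the basal Arg1 of BALB (−0.99) did so too, and with 0.1 TPM the basal Slc7a1 of SPRET (1.22) and its response difference (−1.10) passed it.

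Nos2 (plus strand of chromosome 11, 78920787 to 78960226) barely moved in 4 strains and fell in the fifth. Without IL-4, libraries held 52 to 56.6 TPM in C57, 59.3 to 67.2 TPM in BALB, 58.3 and 59 TPM in PWK and 93.9 to 104 TPM in NOD. SPRET libraries held 26.3, 21.7 and 25.5 TPM and fell to 3.79, 3.2 and 3.99 TPM with IL-4, a 6.71-fold drop (−2.45, SE 0.08, adjusted p = 6.9e-19). Small rises in C57, BALB and PWK (0.24 to 0.29) passed the adjusted p. The SPRET response differed from that of C57 by −2.70 (SE 0.11, adjusted p = 9.4e-16). Per library, Arg1 exceeded Nos2 by 49.9 to 55.3 times in C57 after IL-4 and by 214 to 253 times in SPRET, whereas in NOD it was 0.804 to 0.859 times Nos2.

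Ass1 (plus strand of chromosome 2, 31470270 to 31520670) and Asl (minus strand of chromosome 5, 130011503 to 130024331), the citrulline-to-arginine pair, were expressed at 45.2 to 178 and 48.2 to 72.7 TPM over all strain libraries. The Ass1 value is uncertain in origin, since Gm5424 is listed from 31470308 to 31520629 on the same chromosome with 0.921 to 1.05 times its TPM in every library. Ass1 was highest in NOD (149, 149 and 154 TPM without IL-4) and lowest in SPRET (45.7, 47.4 and 45.2 TPM). None of its responses was called: it fell in C57 (−0.23, SE 0.05) and rose in NOD (0.20) and SPRET (0.30), and these 3 passed. Asl passed only in BALB (−0.15). With median-ratio scaling, Ass1, Nos2 and Srm of NOD without IL-4 (1.22, 1.25 and 1.15 relative to C57) also passed 2-fold, as did Srm with quantile scaling (1.08).

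The polyamine genes showed smaller changes. Odc1 (plus strand of chromosome 12, 17544873 to 17551502) was highest in NOD, at 14.4, 15.1 and 14.8 TPM without IL-4 against 6.14, 6.98 and 6.13 TPM in C57 (1.09, SE 0.08, adjusted p = 2.8e-12). IL-4 raised it in C57 (0.65), SPRET (0.64) and BALB (0.45), each with SE 0.08, but not past the test in NOD (0.09, adjusted p = 0.36) or PWK (0.07, adjusted p = 0.61).

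Srm (plus strand of chromosome 4, 148591513 to 148594619) was highest in SPRET. Its libraries held 25.3, 28.4 and 23.4 TPM without IL-4 and 46.5, 46.1 and 47 TPM with it, against 8.4, 8.09 and 7.36 and then 12.3, 7.82 and 9.38 TPM in C57. The basal difference was 1.57 (SE 0.10, adjusted p = 9.6e-13), and the SPRET response of 0.84 exceeded that of C57 by 0.58 (SE 0.15, adjusted p = 0.0035). Sat1 (minus strand of chromosome X, 155213126 to 155216449) passed in all 5 strains without reaching 2-fold. SPRET rose by 0.80, PWK by 0.61, NOD by 0.56, C57 by 0.43 and BALB by 0.30. Its IL-4 libraries lay above those without IL-4 in each strain, and the basal order was C57 (254 TPM), NOD (209), BALB (204), PWK (178) and SPRET (151).

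Across the 29 strain libraries, log2 levels of Odc1 correlated with those of Ass1 (r = 0.83) and Slc7a1 (r = 0.80), and Arg1 with Sat1 (r = 0.75). Nos2 and Srm ran opposite (r = −0.80). These values are descriptions over libraries that share strains and treatment. Among genes with a group mean of at least 10 TPM, the most alike to Slc7a1 were Aars (r = 0.94), Atf4 (0.92) and Wee1 (0.91), and those most alike to Odc1 were Osgin2 (0.95), Arhgap10 (0.93) and Atf4 (0.92). Atf4, a transcription factor of the amino acid response, thus stood in both lists. For Slc7a2 they were Ssr2, Ralgds and Prps1 (0.90 to 0.92).

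Slc7a1 and Odc1 moved together in these libraries, and their 250 bases before the RefSeq start (assembly GRCm38.p6, the mm10 build) are printed with Ass1, the gene of the list that differed most with Egr2 deletion below. Slc7a1 is chr5:148399905-148400154 (minus strand), Odc1 chr12:17544623-17544872 and Ass1 chr2:31470020-31470269 (both plus strand). Capitals mark a match to any of 6 motifs searched on both strands.
Slc7a1: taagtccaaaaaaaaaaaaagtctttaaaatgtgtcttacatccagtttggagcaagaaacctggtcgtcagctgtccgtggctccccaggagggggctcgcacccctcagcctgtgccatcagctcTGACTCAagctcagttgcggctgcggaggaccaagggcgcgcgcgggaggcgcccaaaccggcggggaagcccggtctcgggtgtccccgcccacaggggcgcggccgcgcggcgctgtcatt
Odc1: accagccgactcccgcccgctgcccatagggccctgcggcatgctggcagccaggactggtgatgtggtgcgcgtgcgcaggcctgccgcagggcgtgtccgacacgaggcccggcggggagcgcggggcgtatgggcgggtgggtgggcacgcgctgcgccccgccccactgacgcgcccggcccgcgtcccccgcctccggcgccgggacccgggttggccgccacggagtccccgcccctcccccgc
Ass1: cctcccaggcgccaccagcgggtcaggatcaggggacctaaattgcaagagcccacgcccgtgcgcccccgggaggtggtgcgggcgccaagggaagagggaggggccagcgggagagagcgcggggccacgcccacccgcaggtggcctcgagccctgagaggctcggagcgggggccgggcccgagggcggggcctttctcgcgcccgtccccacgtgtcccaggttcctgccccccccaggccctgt
The motifs were TTC and GAA spaced by 4 bases (held by 5.85% of 32851 promoters of this length) or by 3 bases (7.02%), GAGGAA (23.3%), TGANTCA (6.75%), and the EGR forms GCGGGGGCG (2.57%) and GCGTGGGCG (0.536%). The single match was TGACTCA of Slc7a1 (TGANTCA reads alike on both strands), which begins 123 bases before the start. Neither EGR form nor any other motif of the list is spelled out in these windows, nor in that of Sat1. The search allowed no mismatch, so that a missing match does not show that a factor cannot bind there. The 4 genes with an entry were Slc7a1, Odc1, Ass1 and Sat1.

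The time course asked when these changes arose in C57 and SPRET. In C57, 2 of the 10 genes were called at 1 h (Arg1 and Slc7a2), 3 at 6 h (these and Srm) and 3 at 24 h (Arg1, Slc7a1 and Slc7a2), all higher, beside 0.877%, 2.13% and 5.76% of 12088 genes tested. In SPRET, Slc7a2 was called at 1 h and Arg1 and Slc7a2 at 6 and 24 h, beside 1.89%, 4.57% and 5.62%. The median of the 10 genes at 24 h was 0.39 in C57 and 0.55 in SPRET, against −0.02 and −0.05 over all genes.

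Arg1 in C57 went from 77 and 90.8 TPM without IL-4 to 233 and 257 TPM at 1 h, 2553 and 2592 TPM at 6 h, and 1793 and 2156 TPM at 24 h. Its 24 h level lay below that at 6 h without passing the test (−0.39, SE 0.18, adjusted p = 0.12). In SPRET it went from 2.66 and 4.49 to 9.29 and 6.74, then 178 and 166, and then 579 and 472 TPM. The SPRET level was thus still climbing between 6 and 24 h (1.60, SE 0.18, adjusted p = 5.1e-05). The rise at 6 h did not differ by the test between strains (0.34, 95% interval −0.22 to 0.90), whereas that at 24 h was greater in SPRET by 2.33 (SE 0.26, adjusted p = 3.1e-05). At 1 h the SPRET rise of 0.99 passed, and it exceeded 2-fold without the second library at 1 h (1.20) or without IL-4 (1.29) and with a pseudocount of 0.1 TPM (1.17).

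**Figure D2:**
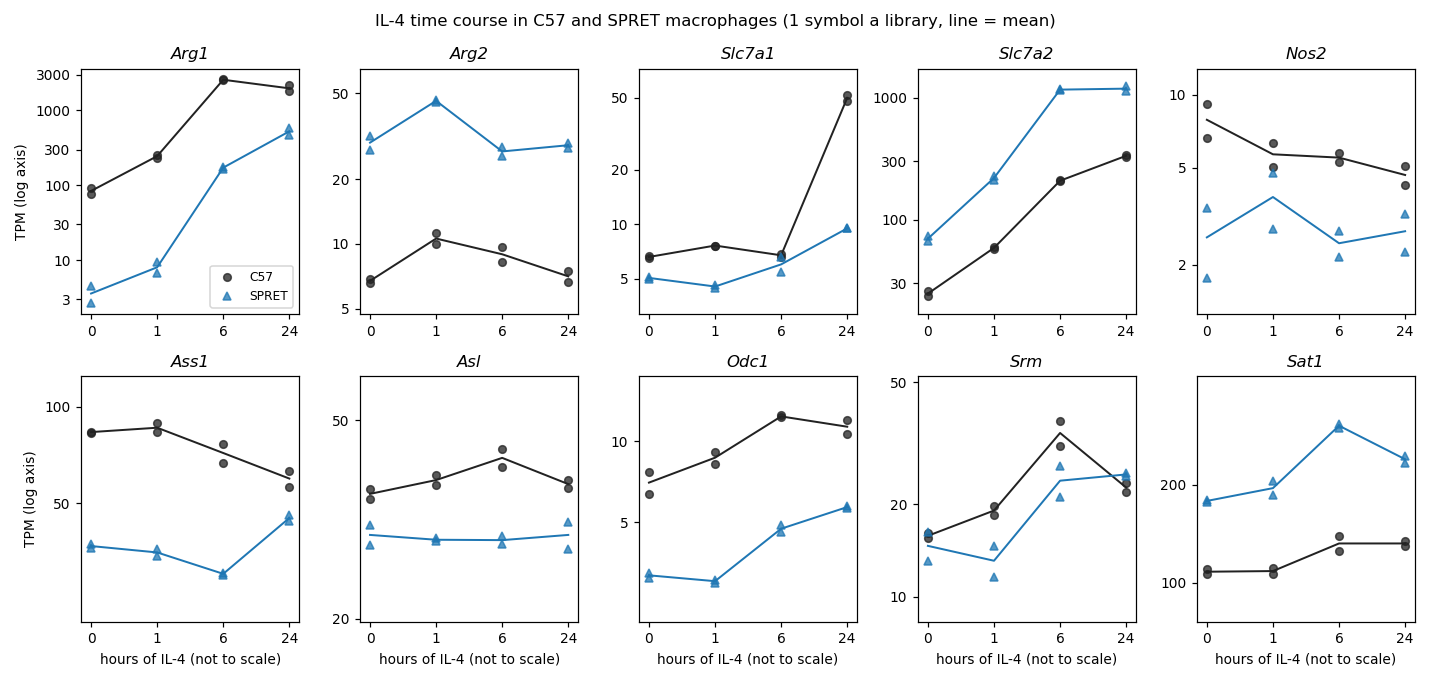
TPM (log axis) of the 10 genes at 0, 1, 6 and 24 h of IL-4 in C57 (black circles) and SPRET (blue triangles), 1 symbol a library and lines through the means. Slc7a1 of C57 lay at 6.52 to 7.64 TPM up to 6 h and at 48.1 and 51.7 TPM at 24 h, and Arg2 peaked at 1 h in both strains.

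Slc7a2 rose at once in both strains, and higher in SPRET at each time. C57 libraries held 25.9 and 23.5 TPM, then 57.4 and 59.8 at 1 h, 207 and 210 at 6 h and 328 and 340 at 24 h. SPRET libraries held 66.2 and 73.3, then 226 and 213, 1180 and 1152, and 1240 and 1136 TPM. SPRET was therefore at its plateau by 6 h (24 h against 6 h: 0.03, SE 0.06), while C57 still gained (0.68, SE 0.06, adjusted p = 5.9e-06). The SPRET response was larger at 6 h by 1.02 (SE 0.09, adjusted p = 1.8e-05). That value slipped under 2-fold without the first C57 library lacking IL-4 (0.95), the first SPRET library lacking IL-4 (0.945) or at 6 h (0.999), and with median-ratio scaling (0.996) or a pseudocount of 0.1 TPM (0.989).

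Slc7a1 was a late gene in C57 of this experiment, though not in Egr2WT, where it was higher by 6 h (below). Libraries held 6.7 and 6.52 TPM without IL-4, 7.64 and 7.64 at 1 h, 6.6 and 6.9 at 6 h, and 51.7 and 48.1 TPM at 24 h, a 7.55-fold rise (2.74, SE 0.09, adjusted p = 2.9e-10). SPRET went from 5 and 5.13 to 9.52 and 9.49 TPM at 24 h (0.79, SE 0.09), and its response was smaller by 1.95 on the log2 scale (SE 0.12, adjusted p = 3.3e-07).

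Arg2 peaked early. In C57 it was 6.86 and 6.62 TPM, then 11.2 and 10 TPM at 1 h and 6.63 and 7.52 TPM at 24 h; in SPRET it was 27.3 and 31.8, then 46.6 and 45.8, and then 29.5 and 28 TPM. The rises at 1 h were 0.58 (adjusted p = 0.0034) and 0.63 (adjusted p = 0.00093), both with SE 0.10, and by 24 h the libraries of each strain overlapped those without IL-4. Srm in C57 peaked at 6 h, from 15.5 and 16.1 TPM to 37.4 and 31 TPM (1.06, SE 0.13, adjusted p = 0.00011), which fell to 0.93 without the first 6 h library and to 0.91 with a pseudocount of 5 TPM. At 24 h it stood at 23.5 and 21.9 TPM.

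Odc1 rose in both strains by 24 h (0.63 in C57 and 0.68 in SPRET, SE 0.10), with 6.35 and 7.7 going to 10.7 and 12 TPM in C57 and 3.23 and 3.11 to 5.63 and 5.76 TPM in SPRET. Ass1 moved in opposite directions: it fell in C57 from 83.6 and 83.1 to 56.3 and 63.2 TPM (−0.48, SE 0.07) and rose in SPRET from 36.3 and 37.4 to 44 and 46.1 TPM (0.28, SE 0.07). The difference of these responses was 0.76 (SE 0.10, adjusted p = 0.00014). Nos2 was low throughout, at 4.26 to 9.14 TPM in C57 and 1.76 to 4.78 TPM in SPRET, and no change with IL-4 passed in either strain. Calls of response differences between the strains numbered 0 at 1 h, 1 at 6 h and 2 at 24 h, beside 0.811%, 2.4% and 6.22% of all genes. Leaving out the second SPRET library lacking IL-4 added Nos2 at 24 h (1.06, adjusted p = 0.042).

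Several of these genes stood at different levels in the 3 experiments, whose tables were normalised separately, so that no test was run across them. Nos2 without IL-4 was 52 to 56.6 TPM in C57 of the strain experiment, 6.63 and 9.14 TPM in C57 of the time course and 12.4 and 17.1 TPM in Egr2WT. Correspondingly, the SPRET drop of Nos2 from 21.7 to 26.3 TPM had no counterpart in the time course, where the libraries started at 1.76 and 3.43 TPM and the 24 h response was 0.09 (95% interval −0.46 to 0.63). Arg2 rose by 1.14 at 24 h in C57 of the strain experiment and by 0.06 (SE 0.10) in the time course. Slc7a1 reached 4.59 to 5.14 TPM after IL-4 in one and 48.1 and 51.7 TPM in the other.

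The strain order turned for 2 genes. Slc7a1 without IL-4 was higher in SPRET than in C57 in the strain experiment (0.82, SE 0.10) and lower in the time course (−0.33, SE 0.09). Sat1 was lower in SPRET in the former (−0.75, SE 0.06) and higher in the latter (0.72, SE 0.06), with 180 and 177 TPM against 106 and 110 TPM in C57. The listed length of Sat1 is 1160 bases in the first table and 1269 in the second for both strains. Srm, 1.57 higher in SPRET in the strain experiment, did not differ by the test in the time course (−0.11, 95% interval −0.40 to 0.19). For Slc7a2 the SPRET response at 24 h was smaller than that of C57 in the strain experiment (−0.57) and larger in the time course (0.37, SE 0.09, adjusted p = 0.0087). Arg1 gave like values in both: the C57 response was 4.75 and 4.54, and that of SPRET 6.83 and 6.87.

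**Figure D3:**
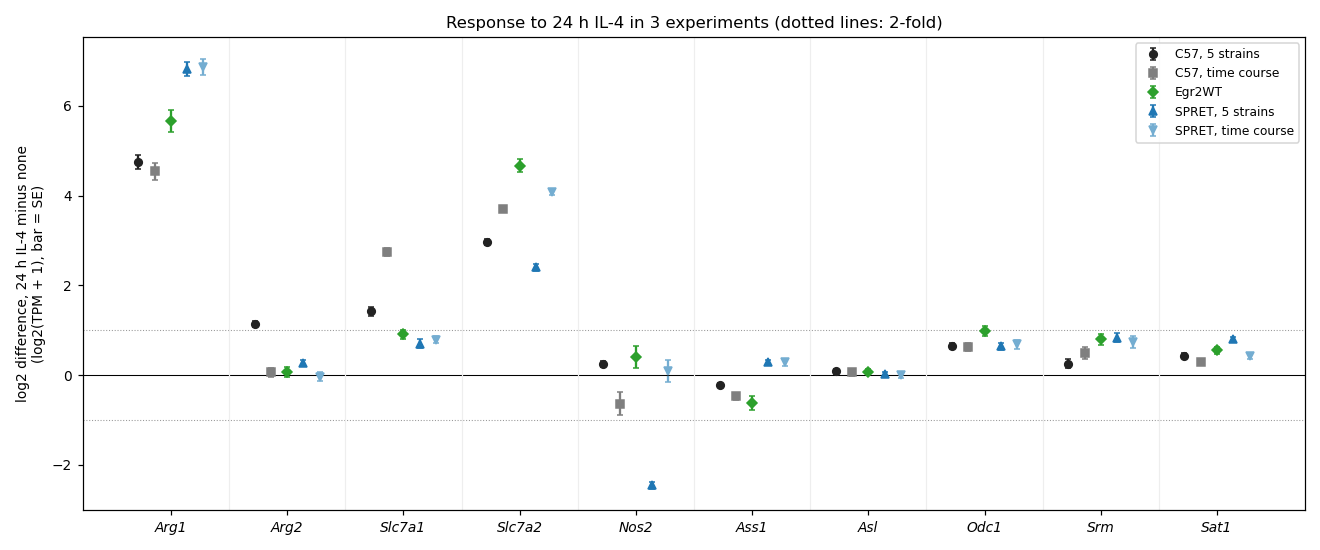
Log2 difference (TPM plus 1) between 24 h of IL-4 and none in C57, Egr2WT and SPRET macrophages of 3 experiments; bars are SE and dotted lines mark 2-fold. The Arg1 values of a strain lie close together between the strain experiment and the time course, whereas Slc7a1 of C57 (1.43 and 2.74), Slc7a2 of SPRET (2.40 and 4.07) and Nos2 of SPRET (−2.45 and 0.09) lie apart.

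The Egr2 experiment asked which genes depend on EGR2, a transcription factor induced by IL-4. Egr2 itself was at 23.6 and 21.3 TPM in Egr2WT without IL-4 and at 0.859 and 0.854 TPM in Egr2MKO. At 24 h it was at 101 and 99.5 TPM against 4.72 and 7.05 TPM, and the differences were −3.66, −4.08, −4.18 and −3.90 at 0, 1, 6 and 24 h. Of the 10 genes, none was called between genotypes at 0 or 1 h, and Ass1 alone at 6 and at 24 h. All genes tested were called at 0.853%, 1.06%, 2.3% and 4.55%.

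Ass1 was lower in Egr2MKO at each time, with no overlap between genotypes. Libraries of Egr2WT held 86.7 and 76.5 TPM without IL-4, 72.3 and 78.3 at 1 h, 65.5 and 66.5 at 6 h and 53.1 and 52 at 24 h. Those of Egr2MKO held 41.6 and 43.2, then 44.5 and 39.6, 34.4 and 22.1, and 16.9 and 19.4 TPM. The differences were −0.93, −0.83, −1.23 and −1.49 (SE 0.15; adjusted p = 0.0016, 0.0036, 0.00014 and 1.1e-05). The value at 6 h went to −0.92 without the second Egr2MKO library of that time, and its adjusted p to 0.11 when only the 6 h libraries were fitted; that without IL-4 went to −1.01 without the second Egr2WT library. Gm5424, listed over the same positions, carried 1.04 to 1.05 times these values. The macrophage marker sum was also lower in Egr2MKO at each time, at 12692 to 13234 TPM against 15404 to 15627 TPM at 24 h. So was the neutrophil marker sum, at 39.6 to 44.7 against 61.4 to 64.5 TPM without IL-4, 39.3 to 49.7 against 68.9 to 83.4 TPM at 1 h, 17.9 to 23.2 against 43.2 to 53.5 TPM at 6 h and 10.7 to 16.1 against 19.1 to 21 TPM at 24 h. The part of either in the result was not tested. The macrophage sum includes Lyz2, the LyzM gene named in the Cre label, so that its lower value in Egr2MKO cannot be read as fewer macrophages. Ass1 fell with IL-4 in both genotypes, by 0.62 on the log2 scale in Egr2WT and by 1.18 in Egr2MKO at 24 h, and the difference of these falls did not pass (−0.56, 95% interval −1.02 to −0.09, adjusted p = 0.12).

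**Figure D4:**
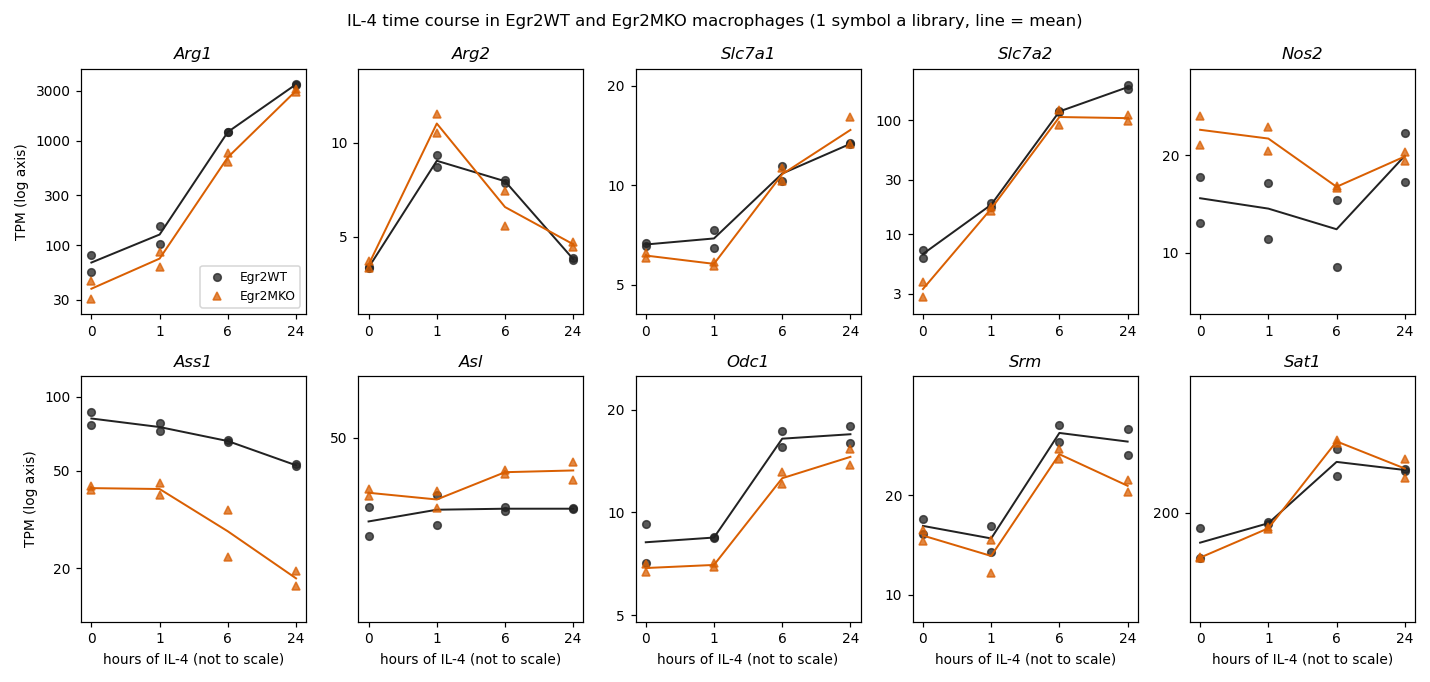
TPM (log axis) of the 10 genes at 0, 1, 6 and 24 h of IL-4 in Egr2WT (black circles) and Egr2MKO (orange triangles), 1 symbol a library and lines through the means. Ass1 of Egr2MKO lay below that of Egr2WT at every time, down to 16.9 and 19.4 TPM at 24 h, whereas Arg1 of the genotypes differed by −0.20 at 24 h.

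Arg1 was lower in Egr2MKO without IL-4 and at 6 h. Egr2WT libraries held 55.1 and 81.5 TPM without IL-4, 151 and 102 at 1 h, 1200 and 1215 at 6 h and 3479 and 3411 at 24 h. Egr2MKO libraries held 30.8 and 46, then 86.8 and 62.2, 620 and 764, and 2883 and 3101 TPM. The differences at 0 and 6 h passed (−0.82, adjusted p = 0.045, and −0.81, adjusted p = 0.031), those at 1 h (−0.74, adjusted p = 0.067) and 24 h (−0.20, 95% interval −0.72 to 0.31) did not, and each SE was 0.24. Without 1 library, the value without IL-4 reached −1.10 (second Egr2MKO library left out) or −1.09 (first Egr2WT library) and that at 1 h −1.03 (second Egr2WT library).

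Slc7a2 differed without IL-4, at 6.18 and 7.24 against 3.82 and 2.79 TPM (−0.85, SE 0.14, adjusted p = 0.0016), and at 24 h, at 203 and 187 against 97.7 and 111 TPM (−0.90, adjusted p = 0.00029). The first reached −1.02 without the first Egr2MKO library and −1.01 with a pseudocount of 0.1 TPM, and the second −1.03 with median-ratio scaling. At 6 h the genotypes overlapped, at 120 and 119 against 91.5 and 122 TPM. Odc1 at 6 h (−0.36), Srm at 24 h (−0.42) and Asl at 24 h (0.21) also passed. The median difference of all genes between genotypes was 0.02 at 6 h and 0.12 at 24 h, and the Asl value is read against that shift. Slc7a1, Nos2, Arg2 and Sat1 did not pass at any time. Nos2 was 12.4 and 17.1 TPM in Egr2WT and 21.5 and 26.5 TPM in Egr2MKO without IL-4 (0.67, SE 0.24, adjusted p = 0.099).

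Against their own libraries without IL-4, Egr2WT cells had 1 of the 10 genes called at 1 h (Slc7a2), 2 at 6 h and 2 at 24 h (Arg1 and Slc7a2), beside 0.778%, 2.86% and 4.35% of 12079 genes. Egr2MKO cells had 2 at 1 h (Arg2 and Slc7a2), 2 at 6 h (Arg1 and Slc7a2) and 4 at 24 h (Arg1, Slc7a1, Slc7a2 and, lower, Ass1), beside 0.902%, 3.7% and 4.83%. Slc7a1 of Egr2WT held 6.7 and 6.54 TPM without IL-4 and 6.48 and 7.33 TPM at 1 h. It held 10.3 and 11.4 TPM at 6 h and 13.4 and 13.3 TPM at 24 h. As ratios of mean TPM, its 24 h rise was 2.02-fold in Egr2WT and 2.39-fold in Egr2MKO. With a pseudocount of 0.1 TPM the Egr2WT rise was called as well. No response of the 10 genes differed by the adjusted p between genotypes at 1, 6 or 24 h, where 0.00828%, 0.207% and 1.9% of all genes were called. At an unadjusted limma p under 0.05 there were 1 at 1 h (Slc7a2), 2 at 6 h (Slc7a2 and Sat1) and 1 at 24 h (Ass1), beside 2.63%, 11.9% and 25.8% of all genes at that threshold. The largest were Slc7a2 at 1 h (0.74, 95% interval 0.31 to 1.16) and 6 h (0.67, adjusted p = 0.17), Nos2 at 24 h (−0.66, adjusted p = 0.25) and Arg1 at 24 h (0.61, 95% interval −0.12 to 1.34).

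Arg2 showed the early peak here as well, from 3.98 and 4 to 8.38 and 9.11 TPM at 1 h in Egr2WT (0.96, SE 0.11) and from 3.97 and 4.18 to 10.7 and 12.3 TPM in Egr2MKO (1.29, SE 0.11, adjusted p = 1.5e-05). The former reached 1.02 without the first Egr2WT library of 1 h and 1.11 with a pseudocount of 0.1 TPM, and the latter fell to 0.86 with 5 TPM. With 5 TPM the calls of Slc7a2 in Egr2WT at 1 h (0.98) and of Slc7a1 in Egr2MKO at 24 h (0.82) also ended, and without the second Egr2MKO library lacking IL-4 Arg1 of Egr2MKO at 1 h was added (1.23). Odc1 gained 0.98 in both genotypes at 24 h (SE 0.11), just short of 2-fold. In Egr2WT it crossed 2-fold with median-ratio scaling (1.04), quantile scaling (1.03) or a pseudocount of 0.1 TPM (1.05), in Egr2MKO with that pseudocount (1.07), and in either when single libraries were left out (1.01 to 1.15). Sat1 gained 0.55 and 0.68, and Srm 0.80 and 0.47.

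The F1 hybrids asked whether a difference between strains follows the allele when both share a nucleus. Values are read against the other allele of the same library, since each table has its own scale. For C57 × SPRET, 8 of the 10 genes could be tested, without Arg2 and Nos2, which were too low. Among these 8, Sat1 lies on chromosome X, and its ratio in cells of female mice was not read as a difference that follows the allele. For C57 × NOD, 5 could be tested (Arg1, Slc7a1, Slc7a2, Odc1 and Srm), and Ass1, Asl, Sat1 and Nos2 were listed at 0 for both alleles. Arg2 was at 0 too, except for 9.04 units of the NOD allele in the first library without IL-4. These untested genes were expressed in both parents (Ass1 at means of 84.8 TPM in C57 and 151 TPM in NOD without IL-4). The zeros can therefore not be read as absent expression. In C57 × SPRET, 6.6% of 10882 genes were called between alleles without IL-4 and 4.48% after it, and of the 8 genes Slc7a2 alone was called in each condition. In C57 × NOD 0% of 4559 genes were called in either condition, although 373 and 607 had an unadjusted limma p under 0.05.

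Slc7a2 kept the strain difference between the alleles of C57 × SPRET. Without IL-4, the C57 allele had 2.17 and 1.78 units and the SPRET allele 9.25 and 9.37, and after IL-4 31.2 and 34.3 against 129 and 85.1. The SPRET allele was thus 4.71 times the C57 allele without IL-4 (log2 ratio of C57 over SPRET −1.80, SE 0.20, adjusted p = 0.017) and 3.26 times with it (−1.65, SE 0.20, adjusted p = 0.028). Between the parent strains SPRET was 4.50 and 2.90 times C57. Leaving out either F1 library lacking IL-4 ended both calls (adjusted p = 0.061 to 0.12).

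In C57 × NOD, the Slc7a2 values were 129 and 142 for the C57 allele against 312 and 408 for the NOD allele without IL-4, and 991 and 1052 against 2234 and 2315 after it. The log2 ratios of −1.39 (unadjusted p = 0.00045) and −1.15 (unadjusted p = 0.00079) failed the adjustment (adjusted p = 0.24 and 0.15). NOD as a parent was 6.44 times C57 without IL-4 but 1.04 times with it. The alleles rose 7.55-fold (C57) and 6.31-fold (NOD) with IL-4 inside the hybrid, against 8.28-fold and 1.34-fold in the parents.

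Arg1 behaved otherwise in C57 × SPRET. Its values after IL-4 were 53.8 and 45.8 for the C57 allele and 49.5 and 43.7 for the SPRET allele, a log2 ratio of 0.09 (95% interval −0.16 to 0.35). Between the parents C57 was 4.00 times SPRET (2.00, SE 0.16). Without IL-4 both alleles were at 0.234 to 0.371, where the ratio is poorly measured and the pseudocount of 1 draws it to 0, so that it cannot be set against the 19.3-fold difference of the parents. In C57 × NOD the C57 allele was 2.38 and 2.97 times the NOD allele without IL-4 and 1.42 and 1.52 times with it. None of these passed the adjustment (adjusted p = 0.25 and 0.27), and the parents differed 22.6-fold and 45.7-fold. With IL-4 the alleles rose 27-fold (C57) and 49.5-fold (NOD) inside this hybrid, against 27-fold and 13.3-fold in the parents.

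**Figure D5:**
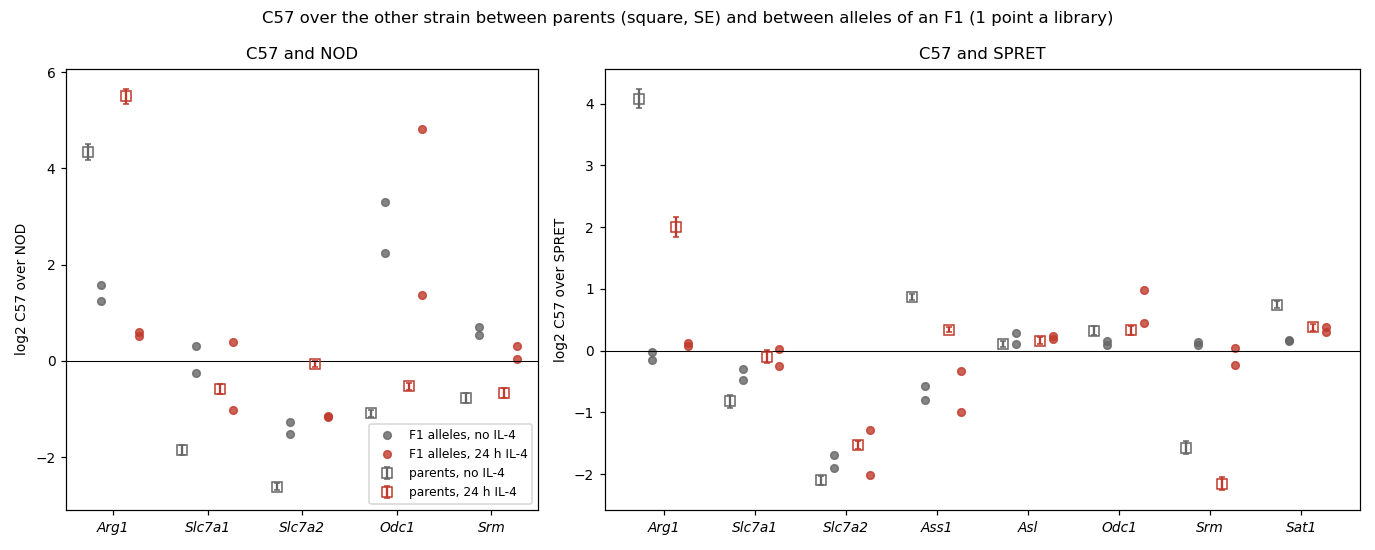
Log2 of C57 over NOD (left) or SPRET (right) between parent strains (open squares with SE) and between alleles of an F1 library (filled points), without IL-4 (grey) and after 24 h (red), for the genes that could be tested. After IL-4, Arg1 of C57 and SPRET lies at 2.00 between parents and at 0.12 and 0.07 between alleles of the F1 libraries (its allele values without IL-4 are too low to be read). Slc7a2 of C57 and SPRET lies at −2.10 without IL-4 and −1.53 after it between parents. Between alleles, its mean log2 ratio is −1.80 without IL-4 and −1.65 after it.

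The other tested genes had allele ratios that did not pass the adjustment. Srm, 3.23 times higher in the SPRET parent without IL-4, had a SPRET-to-C57 allele ratio of 0.924, with a log2 ratio of C57 over SPRET of 0.11 (95% interval −0.17 to 0.40). For Ass1 the C57 parent was 1.84 times the SPRET parent, while the SPRET allele was 1.96 times the C57 allele (−0.69, SE 0.20, adjusted p = 0.097). Odc1 of C57 × NOD had a C57-to-NOD ratio of 4.88 and 10.8 without IL-4 and of 2.67 and 36.6 with it, too scattered to pass (adjusted p = 0.66 and 0.40). No allele ratio of these genes changed with IL-4 by the adjusted p, and 0% of all genes did in either hybrid, with 283 and 770 genes at an unadjusted limma p under 0.05.

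Of 48 further genes of arginine, nitric oxide, ornithine, proline and polyamine metabolism, 37 were tested in the strain table. With IL-4, 3 of the 37 were called higher in C57 (Gatm, Azin2 and Slc7a5), beside 3.8% of all genes. BALB had 1 (Azin2), beside 2.08%, and NOD and PWK had 2 each (Azin2 and Gatm), beside 1.19% and 2.08%. SPRET had none, beside 3.94%, and none was called lower in any strain. Gatm, the first enzyme of creatine synthesis from arginine, rose by 1.71 in C57, 1.53 in NOD and 3.30 in PWK, where its mean went from 13.8 to 144 TPM. Azin2, an antizyme inhibitor, rose by 1.08 to 1.58 in the 4 strains in which it was called, and Slc7a5 by 1.66 in C57.

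In the C57 time course the transporter genes Slc7a5 and Slc3a2, partners in a large neutral amino acid carrier, and Aldh18a1, of proline synthesis, showed the late step seen for Slc7a1. Slc7a5 had means of 3.81, 3.61, 3.40 and 46.6 TPM at 0, 1, 6 and 24 h (3.31 at 24 h, SE 0.16), Slc3a2 137, 131, 139 and 314 TPM (1.19) and Aldh18a1 8.10, 8.80, 8.72 and 34.9 TPM (1.98). The 24 h responses of SPRET were smaller by 2.88, 1.02 and 1.29 on the log2 scale, all called. Of the 37 genes tested there, 4 were called higher (those 3 and Gatm, at 1.4) and 1 lower (Ddah2, −1.12) in C57 at 24 h, beside 5.76% of all genes. SPRET at 24 h had 1 higher (Azin2, 1.14) and 2 lower (Slc7a7, −1.04, and Smox, −1.04), beside 5.62%. At 6 h, Gatm (2.20) and Azin2 (1.08) were called higher in C57, beside 2.13%, and Azin2 (1.57) in SPRET, beside 4.57%. None was called at 1 h. The response differences also held Gatm, smaller in SPRET by 1.96 at 6 h and by 1.68 at 24 h on the log2 scale, and Ddah2 at 24 h (1.02), so that 1 of 37 was called at 6 h and 5 at 24 h, beside 2.4% and 6.22% of all genes.

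Between genotypes of the Egr2 experiment 1 of 36 was called at 24 h, beside 4.55% of all genes, and none earlier. It was Gatm, at 55.9 TPM in Egr2WT and 128 TPM in Egr2MKO (1.18, SE 0.06, adjusted p = 4.3e-08). Its response was the single call among 36 response differences at 24 h (1.49, SE 0.09, adjusted p = 2.2e-06), beside 1.9%. Against libraries without IL-4, Egr2WT had Azin2 (1.51 and 1.62) and Gatm (1.44 and 1.06) called at 6 and 24 h, beside 2.86% and 4.35% of all genes. Egr2MKO had Azin2 (1.65 and 1.95), Gatm (2.06 and 2.55) and Slc7a5 (1.18 and 1.23), beside 3.7% and 4.83%, and none of the 36 was called at 1 h in either genotype.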

How the data were processed

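RNA-seq of polyadenylated RNA from mouse BMDMs was analysed from 5 deposited tables with 69 libraries, 61 in the strain, time course and Egr2 tables and 8 from F1 hybrids. The authors aligned reads with STAR to the genome of each strain, shifted positions to mm10 with MMARGE and deposited TPM made by HOMER. For the F1 tables the authors multiplied expression by the share of reads that overlap a variant of each parent, so that no counts, and no depth behind an allele value, are known. Authors' DESeq2 columns (fold changes and p-values) and a table of human macrophages were not used.

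Libraries were grouped by GEO label. Members and gene lists were chosen with earlier results of these data known: the 10 symbols are named everywhere, a pathway list is counted and its genes called in a main comparison are named, and the 3 most alike genes per member come from Pearson r over 29 libraries among genes of at least 10 TPM in a group mean. Genes that reached 1 TPM in no fewer than 2 libraries entered the test, limma 3.58.1 in R 4.3.3, on log2(TPM + 1), 1 model per table with a mean for each group, empirical Bayes with trend, and Benjamini-Hochberg adjustment over all genes. F1 tests used the log2 ratio of allele values plus 1 in each library, for genes with at least 1 unit in at least 2 libraries of each allele. Calls needed an adjusted p under 0.05 and a difference over 2-fold. Differences understate the change of low genes. Intervals are 95% intervals of the model. Alternatives were other pseudocounts (0.1 and 5), no filter, median-ratio and quantile scaling, fits on the groups compared only, a robust prior, a replicate block, and leaving out each library. Promoter sequences are RefSeq entries of GRCm38.p6. The genes most alike to Arg1 are not reported here.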

Additional observations from a re-analysis of the deposited data

Results flagged for a closer look

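The responses to IL-4 that differed from those of C57 by a test of the difference, over 2-fold, numbered 10 gene and strain pairs after 24 h in the strain experiment. For Slc7a1 they were −1.38 in BALB, −1.27 in NOD and −1.34 in PWK on the log2 scale. For Slc7a2 they were −1.81 in BALB, −2.55 in NOD and −1.25 in PWK. Arg1 gave −1.16 in NOD, 1.94 in PWK and 2.08 in SPRET, and Nos2 −2.70 in SPRET. In the time course SPRET differed from C57 for Slc7a2 at 6 h (1.02), for Arg1 at 24 h (2.33) and for Slc7a1 at 24 h (−1.95). Only the Arg1 difference between SPRET and C57 at 24 h was called with the same sign in both experiments. The Nos2 difference of −2.70 was 0.72 in the time course (SE 0.35, adjusted p = 0.15), where Nos2 started at 1.76 and 3.43 TPM in SPRET.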

How the results depend on the processing

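Counts of called genes (gene and comparison pairs, over the 10 genes) stayed within 1.5 times of those reported under all alternatives but 1 and the left-out libraries. Fitting only the groups compared took the calls between Egr2 genotypes from 2 to 1. Leaving out single libraries gave 12 calls of the 24 h response in 5 strains throughout, 16 to 17 of basal differences (17 reported) and 9 to 11 of response differences (10 reported). It gave 12 to 14 calls against basal in the time course (13 reported), 2 to 4 of its response differences (3 reported), 1 to 3 between Egr2 genotypes, 13 to 15 against basal in the Egr2 experiment (13 reported), 0 of Egr2 response differences, 0 to 2 between F1 alleles (2 reported) and 0 of their change. A library left alone in its group is assumed to vary like the other groups. No called value changed sign: of the single values under an alternative, 7708 kept their side of the threshold, 51 dropped under it and 62 passed it newly.

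Replicate numbers gave little sign of pairing on average: same-numbered libraries deviated together with a mean r of 0.035 (strains), 0.041 (time course) and −0.019 (Egr2). Single pairs ranged from −0.085 to 0.33, from −0.14 to 0.27 and from −0.14 to 0.038. These values cannot show whether libraries came from the same mouse. A replicate block changed no call, with 12, 17, 10, 13, 3, 2, 13 and 0 calls in these 3 tables. In the F1 tables a random replicate block could not be estimated from 4 libraries, and the number as a fixed term, chosen after seeing the data, left 2 and 0 calls. Without counts, the depth behind low genes such as Slc7a1 cannot be read from the tables.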

Other observations

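Nos2 levels across the 29 strain libraries were most like those of Zc3h12d, Slc27a1 and Tnfrsf1b (r = 0.94 to 0.96), Srm like Ppid, Ptbp1 and Rcc1l (0.94 to 0.96), and Sat1 like Stxbp3, its listed relative Stxbp3-ps and Pparg (0.897 to 0.945). For Arg2 they were Tssc1, Dcbld2 and Vti1b (0.92 to 0.93), and for Asl Tcn2, Gbp2b and Ctsa (0.89 to 0.90). Ass1 was most like Gm5424 (0.998), which is listed over the same positions, then Slc6a8, a creatine transporter (0.97), and Psme2 (0.96).

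Of the 37 wider pathway genes without IL-4, BALB had 1 called against C57 (Gatm, 1.08), beside 4.81% of all genes. NOD had 2 higher (Slc7a5 1.74 and Slc3a2 1.73) and 5 lower (Azin2 −2.16, Paox −1.73, Gamt −1.71, Spr −1.33 and Pts −1.11), beside 16.9%. PWK had 7 lower, beside 13.3%. They were Azin2 (−2.58), Sat2 (−1.32), the near-identical copies Amd1 and Amd2 (−1.28 and −1.29), which may share reads, Pts (−1.26), Aldh18a1 (−1.22) and Paox (−1.21). SPRET had 4 higher (Slc7a5 1.35, Atp13a2 1.31, Smox 1.25 and Gamt 1.08) and 6 lower (Ddah2 −2.36, Slc7a4 −2.19, Azin2 −2.11, Slc7a7 −1.21, Amd2 −1.08 and Amd1 −1.06), beside 18.1%.

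The response of Slc7a5 was smaller than in C57 in the other 4 strains, with differences of −1.71 for PWK, −1.56 for NOD, −1.46 for BALB and −1.12 for SPRET. That of Gatm was smaller in BALB (−1.01) and SPRET (−1.36) and larger in PWK (1.58), and that of Slc7a6 was larger in SPRET (1.05). BALB and PWK thus had 2 of 37 called, SPRET had 3 and NOD had 1, beside 1.49%, 2.26%, 3.45% and 2.47% of all genes. Between C57 and SPRET alleles, 4 of 37 were called without IL-4 (log2 of C57 over SPRET: Oaz1 2.62, Slc7a4 2.19, Pts 1.03 and Sms −1.69), beside 6.6%, and 3 after it (Oaz1 2.98, Oaz2 −1.01 and Sms −1.22), beside 4.48%. Sms lies on chromosome X like Sat1, and its ratio was likewise not read as a difference that follows the allele. None of 11 was called between C57 and NOD alleles.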
